A study of Saccharomyces cerevisiae with 8 samples.

Results

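Evolved strain 2 was compared with evolved strain 1, which are both isolates of the budding yeast Saccharomyces cerevisiae taken after long growth on glucose. The arrays were chosen by their titles, 2 of strain 2 and 2 of strain 1, which is 4 of the 8 arrays of the series. Every gene with a probe set of its own entered, 5449 genes in all. Per the labels, BY4742, a laboratory strain, was kept at 30 °C with aeration in 100 ml of CM broth with 2% glucose and 0.5% ammonium sulfate. The culture was diluted daily for a month by carrying over 10 µl, and growth in high glucose lasted approximately 450 generations. Strain 1 and strain 2 share this treatment; the labels give no other difference between them, and each is an individual isolate, so a difference describes these isolates and not a treatment. The comparison asks how far isolates of the same selection ended up apart. From each sample 100 ng of total RNA was amplified, labelled with biotin and hybridised to an Affymetrix yeast array. The labels call the arrays of a strain biological replicates but do not say that they came from separate cultures, so a p-value reflects the spread between arrays, which may be technical.

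Yeast takes up glucose through a family of hexose transporters, and ferments it to ethanol even in air while it holds down respiration. Ribosomes, tRNA synthetases and other parts of protein synthesis make up much of the transcription of fast-growing cells and are raised and lowered together with nutrient supply. Sulfur, nitrogen, phosphate and iron are taken up through regulated permeases, whose transcripts report on the supply of each.

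Levels are log2 intensities, and differences are strain 2 minus strain 1 on the log2 scale with their standard error, from limma fitted over all 8 arrays. A gene was called at a Benjamini-Hochberg adjusted p under 0.05. Replicate arrays correlated across genes at r = 0.9993 in strain 1 and 0.9994 in strain 2, and arrays of the 2 strains at 0.9933 to 0.9939; genes are not independent replicates. Between 5296 and 5321 genes were above background on each of these 4 arrays, background being the 95th percentile of probe sets for another yeast species, at 4.32 to 4.40. BY4742 lacks LYS2, an enzyme of lysine synthesis, and carries MET17, an enzyme of methionine synthesis. LYS2 stood at 11.31 and 11.34 in strain 1 and 11.56 and 11.59 in strain 2, whereas MET17 reached at most 4.41. Both strains therefore went against the label in the same way, and its part in the results was not tested.

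Most differences were small and tightly measured. Of the 5449 genes, 2873 were called (52.7%), 1625 higher in strain 2 (29.8%) and 1248 lower (22.9%), and for all 2873 the arrays of the 2 strains did not overlap. The median size of a called difference was 0.25 and the 90th percentile 0.47. At least 1.5-fold, 80 genes were higher (1.47%) and 33 lower (0.606%), and 12 genes were at least 2-fold apart (0.22%), 7 higher and 5 lower by the fitted difference. Of the higher genes, 2 of the 80 and 1 of the 7, YAL037C-A, were at background in strain 1, so that their fold is only a lower bound, for YAL037C-A at least 1.46-fold. The count of higher genes was 1065 without replicate 2 of strain 2. Of the called genes 56.6% were higher in strain 2, but 48.0% after a second quantile normalization and 39.1% after centring each array on its median; among genes at least 1.5-fold apart the share was 70.8%, 53.1% and 43.6%. With 2 arrays a group, the smallest p of an exact permutation test is 0.333, and none is given for single genes.

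The direction of the small differences followed gene length. Across the 5449 genes, the difference correlated with the length of the gene in the R64 annotation at a Spearman rho of 0.46, a description over genes that share the same 4 arrays. With genes in 5 classes of length, in the class of 51 to 660 bases 65 were called higher and 608 lower, with a median of -0.16. In the class of 2109 to 14733 bases 488 were higher and 81 lower, and the median was 0.12. The difference between replicates correlated with length at 0.0040 in strain 1 and 0.23 in strain 2. Of 6 control transcripts with probe sets at both ends, the gap between the 3′ and the 5′ end was larger in strain 2 for 4 and in strain 1 for 2, with differences from -0.14 to 0.14. After each array's trend with gene length was removed, which was chosen after seeing the data, 1361 genes were called higher (25.0%) and 925 lower (17.0%), 1788 of them called as well in the fit without it.

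**Figure D1:**
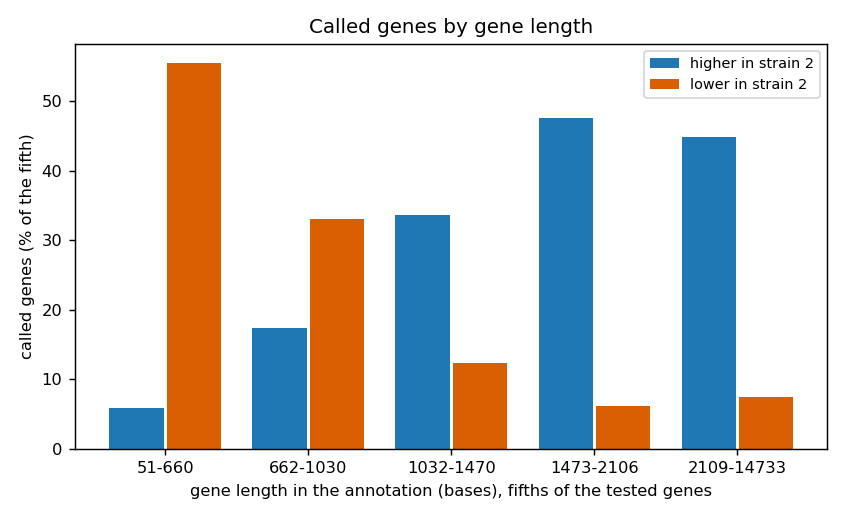
Share of genes called higher (blue) or lower (orange) in strain 2, as a percentage of the genes in each of 5 classes of annotated gene length in bases, over the 5449 tested genes. The class of the shortest genes held 65 higher and 608 lower genes, that of the longest 488 higher and 81 lower.

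The largest difference belonged to PRP16, an RNA helicase of the second step of pre-mRNA splicing. It stood at 11.75 and 11.80 in strain 1 and at 8.17 and 8.17 in strain 2, 12.2-fold lower (-3.61 ± 0.03, adjusted p = 2.77e-08 with limma). Strain 3 had 8.27 on both arrays and the arrays labelled parental 8.66 and 8.69, so strain 1 alone was high. The 4 nearest tested neighbours on chromosome XI were not like it. MRPL20, a mitochondrial ribosomal protein gene, was lower by a log2 difference of -0.31, whereas HBS1, OMA1 and TVP38 differed by 0.09, -0.08 and -0.03 and were not called. Among the 67 measured genes of the splicing list, 10 were called higher and 25 lower, beside 29.8% and 22.9% over all genes. The list had a median of -0.06, against 0.04 over all genes. The U1 snRNP gene YHC1 (-0.47 ± 0.03) and PRP21 (-0.44 ± 0.05), a U2 snRNP gene, were lower, and NAM8, another U1 snRNP gene, was higher (0.55 ± 0.04). Lower calls in this list numbered 16 without replicate 1 of strain 2, and higher calls 6 without replicate 2 of strain 2.

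**Figure D2:**
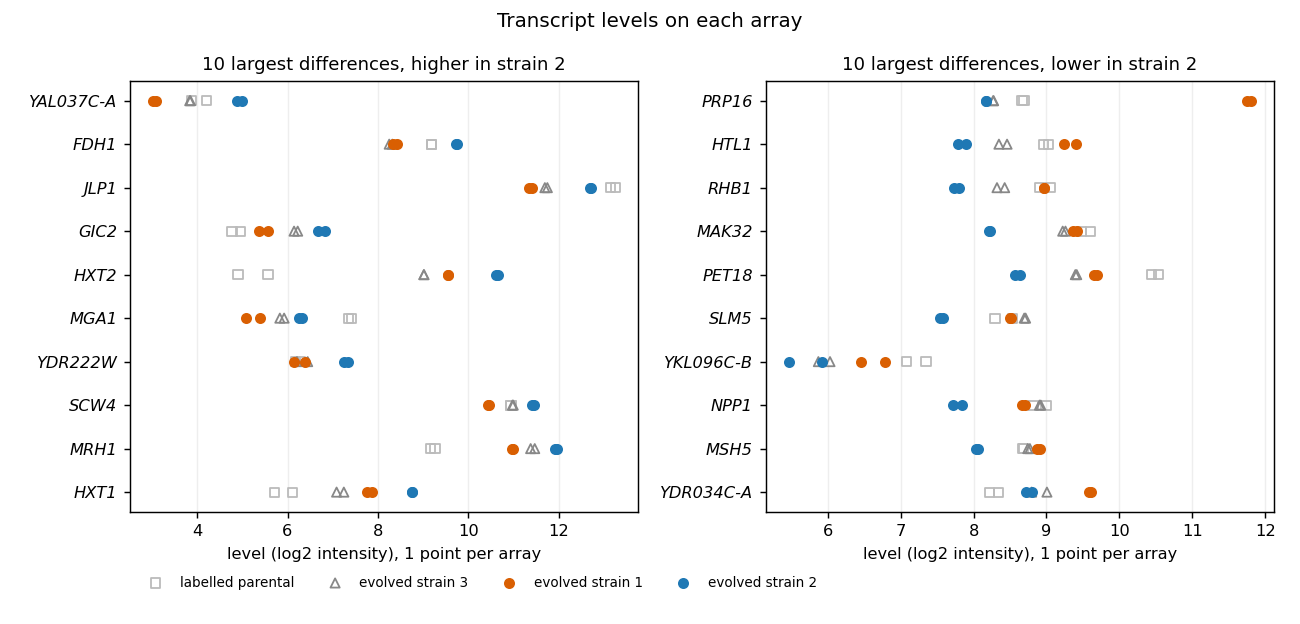
Levels on each array (log2 intensity) of the 10 genes with the largest difference in each direction, for strain 1 (orange), strain 2 (blue), strain 3 (open triangles) and the arrays labelled parental (open squares). PRP16 stood at 11.75 and 11.80 in strain 1 and at 8.17 in strain 2. The 20 genes were chosen among called genes whose arrays did not overlap between the 2 strains.

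A run of neighbouring genes on chromosome III was lower in strain 2. From MAK32 to RHB1, 10 of the 11 tested genes were called lower and none higher, with a median of -0.91. HTL1, a component of the RSC chromatin remodelling complex, stood at 9.40 and 9.24 in strain 1 and 7.78 and 7.89 in strain 2, 2.79-fold lower (-1.48 ± 0.07, adjusted p = 0.000129). RHB1, which encodes a small GTPase of the Rheb family, fell from 8.96 and 8.97 to 7.73 and 7.80 (2.30-fold). MAK32, needed to maintain the killer virus, fell from 9.37 and 9.42 to 8.23 and 8.21 (2.25-fold). The strains did not overlap in these genes, which held for every called gene. PET18 differed by -1.07, SLM5 (mitochondrial asparaginyl-tRNA synthetase) by -0.95, NPP1 (a nucleotide pyrophosphatase) by -0.91, and MAK31 (a subunit of the NatC acetyltransferase) and YCR023C by -0.73 each. PMP1, a small regulator of the plasma membrane proton pump, differed by -0.69 and YCR024C-B by -0.52. The exception inside the run was HSP30, a heat shock protein of the plasma membrane, at 12.96 and 12.95 in strain 1 and 12.96 and 12.97 in strain 2, a difference of 0.01 (95% interval -0.05 to 0.08).

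The run had sharp ends. On one side SRD1 and CWH43 differed by 0.35 (not called) and 0.32, and on the other FEN2, the pantothenate transporter gene, by 0.41. Over all chromosomes, the running median of 9 neighbouring genes reached -0.73 here, and -0.26 at the next lowest place. The run supplied 9 of the 33 genes that were at least 1.5-fold lower, and chromosome III held 9 in all. Standard errors of the 10 lower genes were at most 0.07, their adjusted p-values at most 0.000388 with limma, and at most 0.00516 under every alternative run. In strain 3 the 11 genes differed from strain 1 by a median of -0.02 and from strain 2 by 0.67. The genes were not alike in this: strain 3 lay between the strains for 6 and above both for 5. HTL1 and RHB1 were among the former, with strain 3 differing from strain 1 by -0.92 and -0.59. Strain 1 differed from the arrays labelled parental by a median of 0.10 and strain 2 by -1.13; these comparisons share arrays. The median over the 148 tested genes of chromosome III was 0.0007, and the medians of the 16 chromosomes lay between that and 0.08 on chromosome VI.

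At the left end of chromosome XII, a run of 10 genes lay the other way. From MHT1 to FRE6, 9 of 10 tested genes were called higher in strain 2 and none lower, with a median of 0.43, and the running median of 9 genes reached 0.44, its highest over all chromosomes, against 0.37 at the next place. Several of these genes serve sulfur supply. JLP1, a dioxygenase that releases sulfite from sulfonates, rose from 11.35 and 11.42 to 12.69 and 12.72 (1.32 ± 0.05, adjusted p = 5.77e-05). MHT1, which makes methionine from S-methylmethionine, differed by 0.45, its permease MMP1 by 0.41, the cysteine transporter YCT1 by 0.44 and the glutathione transferase GTT2 by 0.38. YLL056C differed by 0.56, the aquaporin AQY2 by 0.49, YLL053C by 0.41 and the vacuolar iron reductase FRE6 by 0.28, and YLL054C by 0.42 without being called. AYT1, the next tested gene towards the telomere, differed by -0.05 and was not called.

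**Figure D3:**
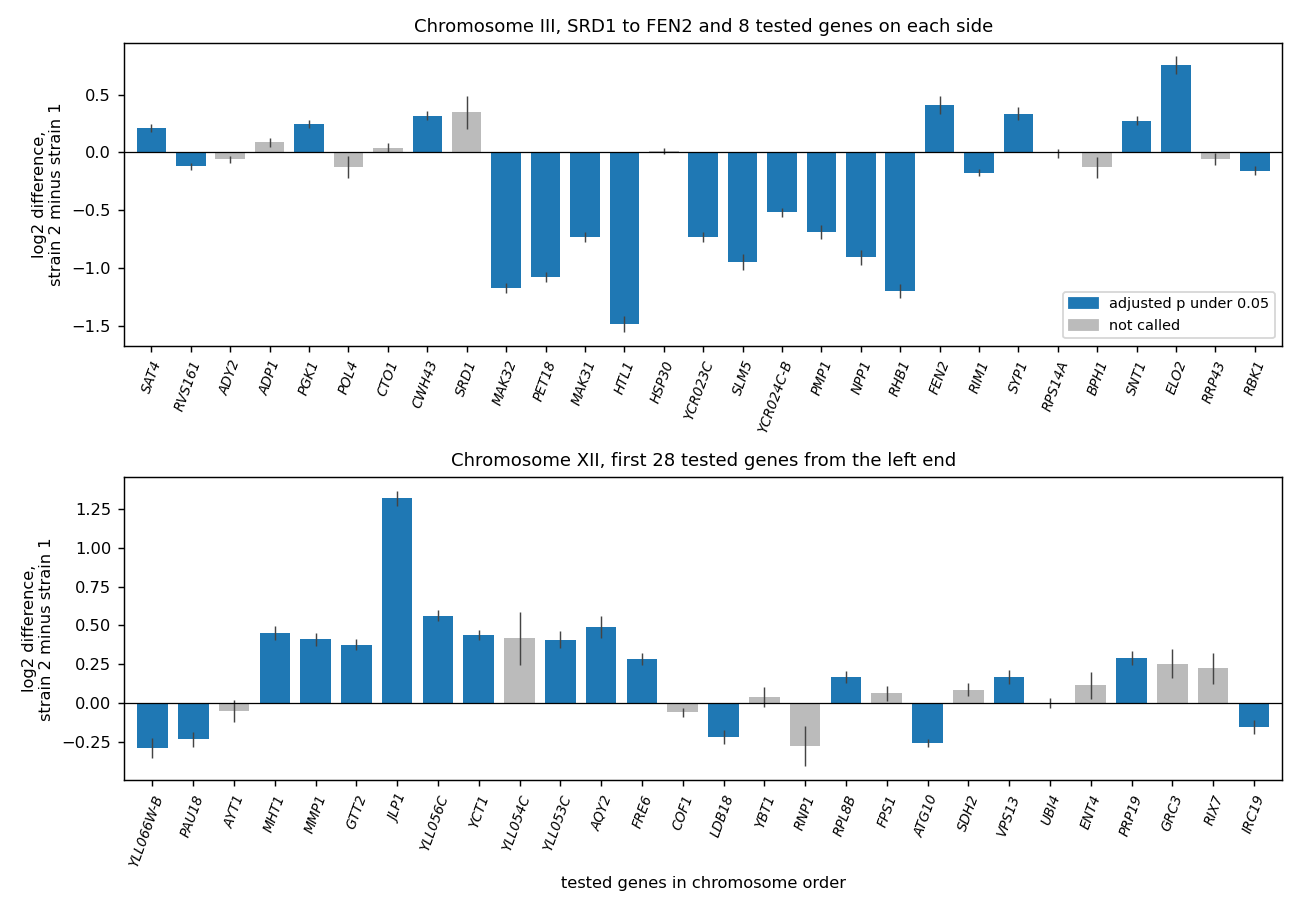
Log2 difference, strain 2 minus strain 1, of tested genes in chromosome order around the chromosome III run (top) and at the left end of chromosome XII (bottom), with bars for single genes, lines for the standard error and blue for called genes. From MAK32 to RHB1 10 of 11 genes were called lower, with HSP30 near 0, and from MHT1 to FRE6 9 of 10 were called higher.

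Sulfur genes were called higher more often than lower, beside 29.8% higher and 22.9% lower over all genes. Of 32 measured genes of sulfate assimilation and methionine synthesis, 19 were called higher and 5 lower (median 0.16), and 13 and 4 after the length adjustment (median 0.09). The lower count was 2 without replicate 2 of strain 2 and 3 without either array of strain 1. CYS3, which makes cysteine from cystathionine, stood at 9.47 and 9.43 in strain 1 and 10.18 and 10.18 in strain 2 (1.66-fold, adjusted p = 0.000431). MET31, a zinc-finger activator of sulfur genes, stood at 7.78 and 7.81 in strain 1 and 6.92 and 7.04 in strain 2 (1.76-fold lower, adjusted p = 0.000190). Each strain's arrays lay apart from the other's for both genes, as for all called genes.

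FDH1 was the largest difference among genes above background in both strains that were higher in strain 2. It encodes the formate dehydrogenase that oxidises formate to carbon dioxide. Its level was 8.42 and 8.34 in strain 1 and 9.74 and 9.75 in strain 2 (2.57-fold, 1.36 ± 0.04, adjusted p = 3.36e-05 with limma). Strain 3, at 8.32 and 8.25, lay with strain 1, and the arrays labelled parental, at 9.19 and 9.18, lay between. YAL037C-A, an uncharacterised short gene, was at background in strain 1 (3.08 and 3.02) and at 4.99 and 4.89 in strain 2, at least 1.46-fold higher against the background level; its neighbour CDC19, the pyruvate kinase gene, was higher by 0.30 and RBG1 by 0.45, while CYC3 and YAL037W were not called.

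Enzymes that make and use one-carbon units moved little beside FDH1. For comparison, 29.8% of all genes were called higher and 22.9% lower. Of 17 measured genes of formate and one-carbon metabolism, 7 were called higher and 1 lower, with a median of 0.12; the higher calls numbered 3 without replicate 2 of either strain and 4 without replicate 1 of strain 1. MIS1, the mitochondrial C1-tetrahydrofolate synthase, was higher by 0.38 ± 0.04, MET13 (methylenetetrahydrofolate reductase) by 0.46 ± 0.13 and SHM2, the cytosolic serine hydroxymethyltransferase, by 0.31 ± 0.04. SHM1, its mitochondrial form, was higher by 0.13, MET12 by 0.15 and FOL1 by 0.23. DFR1, dihydrofolate reductase, was lower (-0.13), and 0.01 after the length adjustment. ADE3, GCV1, GCV2, GCV3, MTD1, MET7, FOL2, FOL3 and CDC21 were not called, with differences from -0.05 to 0.19.

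Transport of glucose separated the strains at HXT2 and HXT1. HXT2, a transporter of high affinity that is made when glucose is scarce, stood at 9.56 and 9.55 in strain 1 and 10.62 and 10.67 in strain 2 (2.13-fold, adjusted p = 0.00354 with limma). HXT1, the low-affinity transporter of high glucose, stood at 7.86 and 7.76 in strain 1 and 8.76 and 8.76 in strain 2 (1.94-fold, adjusted p = 0.00117). Neither gene's arrays overlapped between the strains, as was so for all called genes. Strain 3 was lower than both strains, at 9.02 and 9.02 for HXT2 and 7.25 and 7.09 for HXT1. The standard errors, 0.19 and 0.12, take in the spread of all 8 arrays, and for HXT2 the arrays labelled parental stood at 5.57 and 4.90.

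The other transporters and the sensors differed less. HXT3 was higher by 0.36 ± 0.03, HXT9 by 0.33 ± 0.04 and HXT4 by 0.30 ± 0.05. HXT7, a high-affinity transporter, was called higher at 0.10 ± 0.03 (adjusted p = 0.0443) but stood at -0.02 after the length adjustment. HXT5 differed by 0.06 (95% interval -0.05 to 0.17), and HXT11, HXT13, HXT17 and GAL2 were not called either; the 2 probe sets of HXT17 disagreed in sign, at -0.14 and 0.34. At background in both strains were HXT8, HXT10, HXT14 and HXT15. The glucose sensor genes SNF3 and RGT2 differed by 0.02 and 0.11 and were not called, nor were the repressor gene RGT1 and its partner MTH1, at 0.02 each. MIG2, a glucose repressor, was higher by 0.58 ± 0.13 and the related MIG1 and MIG3 by 0.16 and 0.15, and STD1, a relative of MTH1, by 0.17. The shares over all genes were 29.8% higher and 22.9% lower. Of the 23 measured genes of the list, 10 were called higher and none lower, but 6 without replicate 1 of strain 1 or replicate 2 of strain 2, and 7 higher and 2 lower after centring on the median or the length adjustment.

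**Figure D4:**
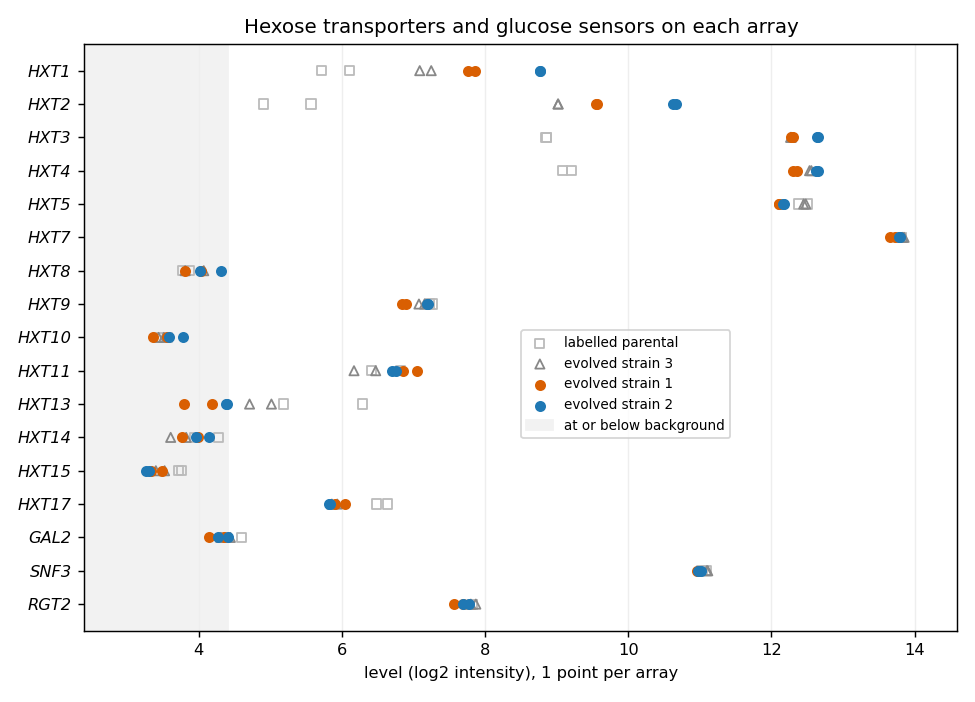
Levels on each array (log2 intensity) of hexose transporter genes and of the glucose sensors SNF3 and RGT2, with colours and symbols for the groups and grey shading up to 4.40, the highest background of the 4 arrays. HXT1 and HXT2 were higher on both arrays of strain 2 than on either array of strain 1, by 0.95 and 1.09, and 4 transporters lay at background in both strains.

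Genes for the use of glucose were called higher more often than lower in strain 2, but not they alone. Of 18 genes of gluconeogenesis and the glyoxylate cycle 10 were higher and 1 lower (6 and 1 after the length adjustment). Of 12 galactose, sucrose and maltose genes 6 were higher and 1 lower (4 and 1 after it). Over all genes 29.8% were higher and 22.9% lower. Of 16 glycolytic genes, 11 were called higher and none lower, with a median of 0.20, and again 11 after the length adjustment. The enolase gene ENO2 rose from 11.47 and 11.41 to 12.05 and 12.09 (1.55-fold, adjusted p = 0.000696). PFK1 and PFK2, the subunits of phosphofructokinase, were higher by 0.42 and 0.41, and PYK2, a minor pyruvate kinase, by 0.39. Of 15 genes of ethanol and acetate metabolism, 9 were higher and none lower, led by the cytosolic aldehyde dehydrogenase ALD6, which was higher by 0.78 ± 0.05 (1.71-fold, adjusted p = 0.000184). PDC6 (a minor pyruvate decarboxylase), ACS2 (acetyl-CoA synthetase) and ALD3 were higher by 0.55, 0.46 and 0.46. In the pentose phosphate pathway 8 of 11 genes were higher and 1 lower (5 higher without replicate 1 of strain 1), among them the transketolases TKL2 and TKL1, by 0.54 and 0.51, and the 6-phosphogluconate dehydrogenase GND1, by 0.42. PFK27, which makes the phosphofructokinase activator fructose 2,6-bisphosphate and was named after its value was seen, was higher by 0.81 ± 0.09. Of 23 trehalose and glycogen genes, 15 were higher and 1 lower (10 and 2 after the length adjustment), with GAC1, a phosphatase subunit of glycogen control, at 0.52, and the glycogen synthases GSY1 and GSY2 at 0.36 and 0.33.

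Genes of nucleotide synthesis and salvage differed in both directions, beside 29.8% higher and 22.9% lower over all genes. IMD4, an IMP dehydrogenase of the guanine branch, rose from 8.61 and 8.63 to 9.54 and 9.54 (1.89-fold, adjusted p = 0.000205). Its relatives IMD2 and IMD3 were higher by 0.61 and 0.31, and GUA1, the GMP synthase, by 0.56; of the 7 genes of the branch 4 were higher and 2 lower, the latter being 0 without replicate 1 of strain 2 and after the length adjustment. AAH1, adenine deaminase, rose from 9.56 and 9.55 to 10.41 and 10.42 (1.82-fold, adjusted p = 0.000704). APT1 (adenine phosphoribosyltransferase) and ADO1 (adenosine kinase) were higher by 0.39 and 0.36, whereas ADE4, the first enzyme of purine synthesis, was lower by a log2 difference of -0.42. Of the 17 genes of that list 9 were higher and 1 lower. Among pyrimidine genes the uracil permease FUR4 was higher by 0.74, the CTP synthase URA7 by 0.50 and the uridine kinase URK1 by 0.42, and 7 of 16 were higher and 3 lower (median 0.04), and 10 and 1 after the length adjustment (median 0.17). The lower count was 1 without replicate 2 of strain 1 or replicate 1 of strain 2.

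Genes that load amino acids onto tRNA had the largest share of members called in 1 direction among the lists with 4 or more measured genes. This ranking belongs to the fit over all 8 arrays. In the fits to 6 or 4 arrays the amino acid permease list, at 19 of 19 higher, and the Puf proteins, at 6 of 6, stood above them. Of 19 cytosolic aminoacyl-tRNA synthetases, 18 were called higher in strain 2 and none lower (median 0.31), 15 after the length adjustment (median 0.21) and 17 when any single array was left out. FRS2, a subunit of the phenylalanine enzyme, was higher by 0.49 ± 0.04, the threonine enzyme THS1 by 0.44 ± 0.05 and the glycine enzyme GRS1 by 0.39 ± 0.03. Of 19 genes of amino acid permeases and their sensor, 17 were higher and none lower (median 0.28; 11 higher after the length adjustment, at a median length of 1827 bases). AGP3 was higher by 0.45, the arginine permease CAN1 by 0.38, and SSY5 and PTR3, parts of the amino acid sensor, by 0.41 and 0.38. In amino acid synthesis, 7 of 11 genes of the branched-chain pathway were higher and none lower (4 after the length adjustment, and 3 or 4 when any 1 array was left out). Of the lysine genes 4 of 8 were higher and 1 lower, with LYS9 at 0.47 and LYS4 at 0.44. Of 11 arginine genes 3 were higher and 2 lower, with ARG82 (-0.43) among the latter. The arginine shares were near the 29.8% higher and 22.9% lower over all genes. Higher arginine genes numbered 1 without replicate 2 of strain 1 or either array of strain 2, and 0 after the length adjustment. GLY1, threonine aldolase, was higher by 0.60 and the aromatic aminotransferase ARO8 by 0.41.

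Genes of ribosome assembly and translation factors were called higher more often than lower, but many were not called. Of 91 ribosome biogenesis genes, 42 were called higher and 5 lower (median 0.11), 38 and 1 after the length adjustment, and 34 and 13 after centring on the median. ERB1, a factor of the large subunit, rose from 9.51 and 9.47 to 10.32 and 10.28 (1.75-fold, adjusted p = 0.000162); the helicase DBP3, the methyltransferase NOP2 and NOP7, partner of ERB1, were higher by 0.69, 0.66 and 0.54. RPA135 and RPA190, the largest subunits of RNA polymerase I, were higher by 0.63 and 0.43, and RPO21 of polymerase II by 0.54. Their list of 31 had 11 higher and 8 lower, near the 29.8% and 22.9% over all genes, with 0 lower after the length adjustment. The higher count was 6 or 7 without replicate 1 of strain 1 or either array of strain 2, and the lower 5 without replicate 2 of strain 2. Of 34 translation factors 20 were higher and 3 lower (19 and 0 after the length adjustment), with TEF4, an elongation factor subunit, at 0.54 and the initiation factor TIF4631 at 0.52.

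Cytosolic ribosomal protein genes gave no settled direction, beside 29.8% higher and 22.9% lower over all genes. Of 76 genes for the large subunit 14 were called higher and 4 lower, and of 52 for the small subunit 7 and 4, with medians of 0.01 each. After centring on the median these counts were 5 higher and 19 lower, and 1 higher and 9 lower, while the length adjustment gave 39 higher and 1 lower, and 27 higher and 1 lower. Leaving out 1 array left 5 or 6 higher in the large subunit and 2 in the small. RPL43B was higher by 0.30 and RPS0B by 0.24, and RPS9A was lower by a log2 difference of -0.47.

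Mitochondrial ribosomal protein genes were mostly lower, beside 22.9% lower and 29.8% higher over all genes. Of 70 measured genes, 57 were called lower in strain 2 and 2 higher, with a median of -0.29, and 44 lower and 2 higher after the length adjustment, with a median of -0.17. MRPS5 stood at 11.05 and 10.97 in strain 1 and 10.49 and 10.47 in strain 2 (1.44-fold lower, adjusted p = 0.000406 with limma). RSM22 stood at 10.46 and 10.32 against 9.92 and 9.84 (1.42-fold lower, adjusted p = 0.000694), and MRPL27 and MRPL50 differed by -0.44 and -0.43. Leaving out 1 array left 50 or 51 genes lower.

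Nuclear genes of the respiratory chain and ATP synthase were called lower more often than higher, but not after the length adjustment. Among all genes, 22.9% were lower and 29.8% higher. Of 37 genes, 26 were lower and 7 higher (median -0.15), but 2 were lower and 5 higher after the length adjustment (median 0.02), at a median length of 444 bases. The higher ones included the NADH dehydrogenases NDI1 (0.52 ± 0.04) and NDE1 (0.31), cytochrome c1, CYT1 (0.51 ± 0.04), and COR1 (0.30) of complex III. HAP4, the activator of respiratory genes, was higher by 0.34. Of 36 proteasome genes 20 were lower and 3 higher (10 and 1 after the adjustment), with RPN12 at -0.29 and RPN9 at -0.25. Histone genes, 402 bases long at the median, had 7 of 10 lower and none higher, and 1 lower and 2 higher after it; CSE4, the centromeric histone, was lower by a log2 difference of -0.39. Lower counts of histone genes were 3 or 4 when 1 array was left out. Of 13 measured genes of the subtelomeric PAU family, 10 were lower and 1 higher, 2 and 1 after the adjustment, and 6 lower without replicate 2 of strain 2. The part of gene length in these counts was not tested.

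**Figure D5:**
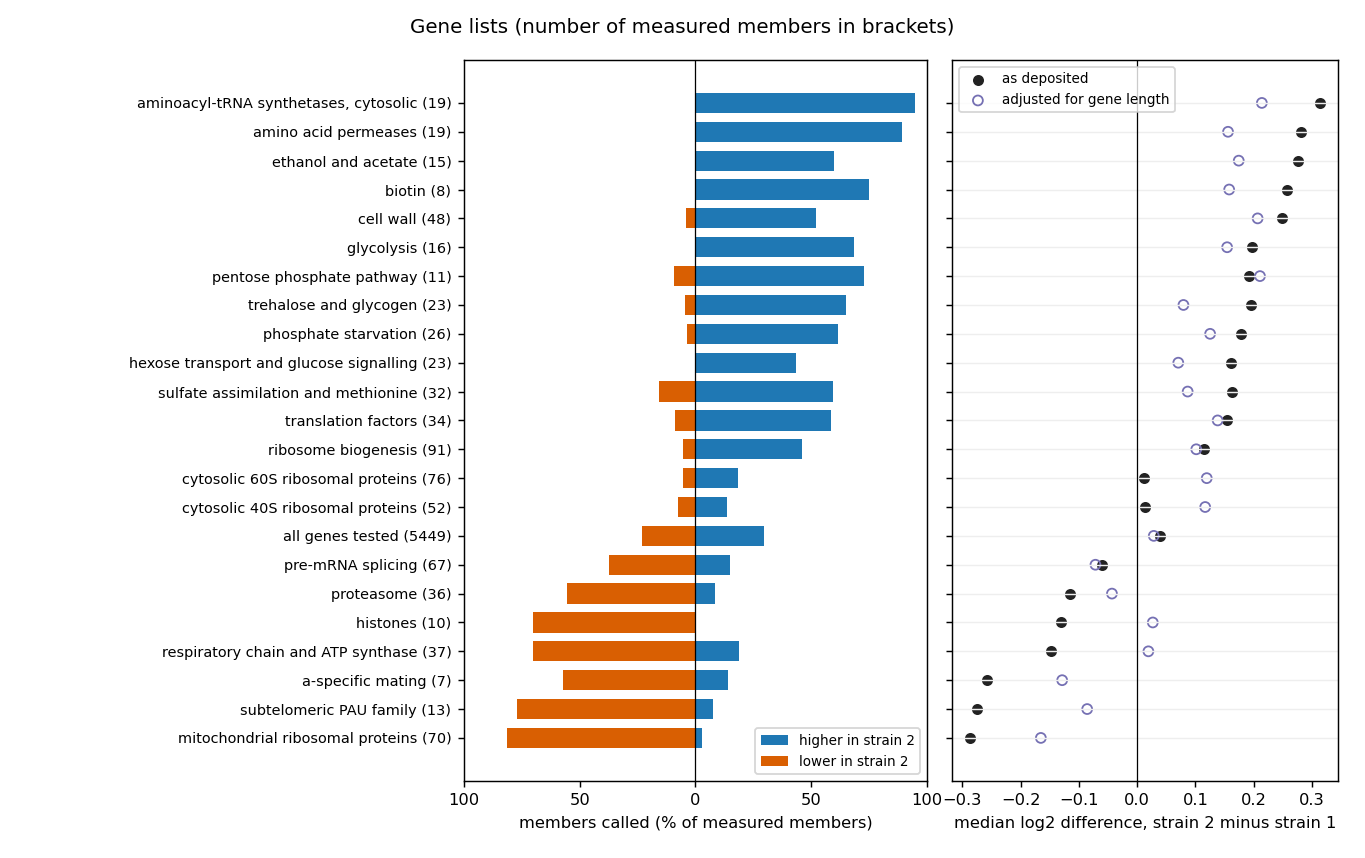
For 22 gene lists and all 5449 genes, the left panel shows the percentage of measured members called higher (blue, to the right) or lower (orange, to the left) in strain 2. The right panel shows the median log2 difference as deposited (filled) and after adjustment for gene length (open): the median of the mitochondrial ribosomal protein genes moved from -0.29 to -0.17, and that of the respiratory chain genes from -0.15 to 0.02.

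Cell wall genes were more often higher than lower in strain 2, beside 29.8% higher and 22.9% lower over all genes. Of 48 cell wall genes, 25 were called higher and 2 lower (median 0.25), and 28 and 3 after the length adjustment. SCW4, a wall protein related to glucanases, rose from 10.47 and 10.44 to 11.41 and 11.45 (1.97-fold, adjusted p = 3.57e-05). The glucan-remodelling enzymes GAS1 and GAS5 were each higher by 0.60 and the wall stress sensor WSC4 by 0.55.

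At the plasma membrane, PMA1, the proton pump that uses much of the cell's ATP, rose from 10.92 and 10.88 to 11.69 and 11.79 (1.78-fold, adjusted p = 0.000168). PMA2, its minor relative, which was named after its value was seen, was higher by 0.62. MRH1, a membrane protein related to HSP30, was higher by 0.96 ± 0.05 (1.94-fold, adjusted p = 0.000161). Strain 3 lay between the strains for PMA1 and MRH1, at 11.28 and 11.25 and at 11.47 and 11.38. SEO1, a permease of the allantoate family, was higher by 0.84 and the polyamine and drug exporters TPO1 and PDR15 by 0.71 and 0.68.

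Several regulators of bud growth and the cell cycle were higher. GIC2, an effector of Cdc42 in polarised growth, rose from 5.37 and 5.58 to 6.67 and 6.83 (2.42-fold, 1.28 ± 0.10, adjusted p = 0.000276). CLN3, the cyclin that starts the cell cycle, stood at 5.83 and 6.01 in strain 1 and 6.81 and 6.76 in strain 2 (1.82-fold, adjusted p = 0.00815), and 0.0543 without replicate 1 of strain 1. Of 34 polarity genes 17 were higher and 2 lower (9 higher without replicate 1 of strain 1 or replicate 2 of strain 2, and 11 without replicate 2 of strain 1; 12 higher and 4 lower after the length adjustment), with the mucin MSB2 at 0.58. The G1 cyclin CLN1 was higher by 0.57, the regulator MCM1 by 0.55 and FKH2, a forkhead factor of G2 genes, by 0.49. Their list as a whole had 8 of 27 genes higher and 3 lower, a share of higher genes near the 29.8% over all genes, and 4 or 5 higher when any 1 array was left out. Of 25 genes of DNA synthesis 6 were higher and 7 lower, near the 29.8% and 22.9% over all genes (5 and 6 after the length adjustment). Their median was -0.01, and between -0.02 and 0.04 when any 1 array was left out. MGA1 and HMS2, both related to heat shock factors, were higher by 1.06 ± 0.10 and 0.94 ± 0.06. Among RNA-binding Puf proteins 5 of 6 were higher and none lower (2 after the length adjustment and without replicate 2 of either strain), with MPT5 at 0.90 ± 0.12. SRO9, an RNA-binding protein of the La family, was higher by 0.82 ± 0.04.

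Mating genes differed in both directions, with more of the a-specific genes lower than higher. For all genes the shares were 29.8% higher and 22.9% lower. The a-factor gene MFA1 stood at 10.76 and 10.75 in strain 1 and 10.37 and 10.25 in strain 2, and AGA2, an agglutinin subunit, at 7.69 and 7.84 against 7.13 and 7.22. ASG7 differed by -0.64 ± 0.04. Of the 7 a-specific genes 4 were called lower, MFA2 the fourth, and 1 higher, the a-factor exporter STE6, with a median of -0.26. After the length adjustment 3 were lower and 0 higher, with a median of -0.13. The summed intensity of the 7 genes was 3074 on both arrays of strain 1 and 2378 and 2482 in strain 2. The receptor gene STE2 differed by 0.02 (95% interval -0.14 to 0.17) and the protease gene BAR1 by 0.05. Fewer cells of a type and less RNA per cell cannot be told apart here. Of the 4 alpha-specific genes SAG1 was higher by 0.41, STE3 lower (-0.13), and MF(ALPHA)1 and MF(ALPHA)2, at -0.41 and -0.54, were not called. Those calls depended on the fit. With 6 or 4 arrays, without the arrays labelled parental, and after the second quantile normalization, 3 were lower and 1 higher. After centring on the median 2 were lower and 1 higher. The summed intensity of the 4 genes was 497 and 498 in strain 1 and 506 in strain 2. HMRA1 and HMRA2 were lower by log2 differences of -0.36 and -0.12, and HMLALPHA1 was not called. Genes of both mating types were thus above background on the 4 arrays, although BY4742 is a haploid of mating type alpha. The 7 a-specific genes had the larger summed intensity, 3074 in strain 1 against 497 and 498 for the 4 alpha-specific genes. The mating type of the strains was not tested. The calls of STE6 and STE3 were lost when single arrays were left out: STE6 kept its call only without replicate 1 of strain 1, and STE3 only without replicate 2 of strain 2. Haploid-specific genes had 6 of 16 lower and 2 higher, with STE18 and GPA1, subunits of the pheromone G protein, at -0.53 and -0.41, and 3 lower without replicate 1 of either strain.

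In the phosphate, iron, biotin and ammonium lists, genes were called higher more often than lower. Over all genes 29.8% were called higher and 22.9% lower. Phosphate genes had 16 of 26 higher and 1 lower (9 higher without replicate 2 of strain 2), with the phosphate transporter PHO90 at 0.55. Iron genes had 18 of 33 higher and 2 lower, 10 and 6 after centring on the median and 12 and 4 after the length adjustment, with the wall mannoproteins FIT3 and FIT2 at 0.57 and 0.36. Higher iron genes numbered 11 when any array but replicate 1 of strain 2 was left out, and 13 without that one. Of 8 biotin genes 6 were higher and none lower, BIO3 at 0.44 first among them, and of 16 genes of ammonium uptake and glutamate synthesis 12 were higher and 1 lower (8 and 3 after the length adjustment), with the ammonium permease MEP2 at 0.37. HEM13, the oxygen-requiring coproporphyrinogen oxidase, was higher by 0.64. Its list had 11 of 24 higher and 5 lower (10 and 1 after the length adjustment). The ergosterol gene MVD1 was higher by 0.57 in a list with 15 of 29 higher and 1 lower (10 and 3 after the length adjustment).

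Among the other large falls, MSH5, which acts in meiotic crossing-over, stood at 8.90 and 8.88 in strain 1 and 8.06 and 8.03 in strain 2 (1.80-fold, adjusted p = 5.77e-05). PAI3, the inhibitor of vacuolar proteinase A, stood at 11.86 and 11.85 against 11.06 and 11.15 (1.68-fold, adjusted p = 0.000162). BLI1, a subunit of the BLOC-1 complex, differed by -0.72, CSM4, of meiotic chromosome movement, by -0.65, and the uncharacterised YKL096C-B, YDR034C-A, YOL131W, YLR031W and YNL146C-A by -0.93 to -0.66. The 20 genes with the largest falls had a median length of 502.5 bases and the 20 with the largest rises one of 1276.5, against 1236 over all genes. Among the 20 largest rises, strain 3 lay below both strains for 4, FDH1, HXT1, HXT2 and AAH1.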

How the data were processed

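The deposited values are intensity values on a linear scale, made by the authors with RMA per the submitters' processing notes, which name no version. RMA removes background, gives all arrays 1 distribution and fits 1 value per probe set. Log2 was taken here. Of 10928 probe sets the annotation listed 7245, of which 5498 had 1 S. cerevisiae gene and 1 several; 1746 belonged to another species, whose 95th percentile on each array set the background. For 47 genes with several probe sets the one with the highest mean was used, which left 5449 genes; 12 symbols were updated from the R64 annotation, used only for names, gene order and gene length. A fold against a strain at background was computed against that background and is a lower bound. Promoter and protein sequences were not analysed here.

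The test was limma's (version 3.58.1, R 4.3.3), with 1 coefficient per group over all 8 arrays, with 4 residual and 2.52 prior degrees of freedom; strain 3 and the arrays labelled parental add only to the spread. The median standard error was 0.05, and the number of arrays limits the precision. The code was tested on simulated data. Alternatives were fits to 6 or 4 arrays, a replicate block, a second quantile normalization, median centring, a filter on dim genes, the mean of probe sets, robust moderation with a trend (statmod 1.5.0), each array left out and, added after seeing the data, removal of each array's lowess trend with gene length. Deviations of same-numbered arrays of strains 1 and 2 from their group means correlated at r = -0.03, so the numbers do not pair the arrays.

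The genes and lists were chosen with earlier results of these data known. Named by rule were the 20 largest called differences in each direction among genes without overlap and above background in the higher strain, up to 4 called members of each list, all members of the hexose, one-carbon, mating and strain-check lists, and the neighbours of the largest difference in each direction. The runs on chromosomes III and XII were chosen after their values were seen. Lists have no set test: they are described by counts and medians. The result of 1 gene list is not reported here.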

Additional observations from a re-analysis of the deposited data

How the results depend on the processing

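The count of called genes lay between 1941 and 2101 when 1 array was left out, and that of higher genes between 1065 and 1153. At least 1.5-fold, 51 genes were higher and 66 lower after centring on the median, and 53 were lower after the second quantile normalization, against 80 and 33. The fits to 6 and 4 arrays, which leave out the arrays labelled parental, gave 3469 and 3432 calls against 2873. The root mean square standard deviation between replicates was 0.117 in the arrays labelled parental, 0.058 in strain 1 and 0.053 in strain 2. The replicate block gave 2775 calls, and same-numbered arrays of different groups correlated at r = -0.12 to 0.03. After the adjustment for gene length, HXT7 stood at -0.0196, DFR1 at 0.00935 and HMRA2 at 0.0717 without a call, and GCV3 was called at 0.12; the adjustment is the only change in these fits. It left 65 of the 113 genes at least 1.5-fold apart. Of the 40 genes with the largest differences, 1 lost its call, CLN3 without replicate 1 of strain 1, and none changed direction under any alternative run. Of the medians of 65 lists, 9 changed sign after centring on the median and 8 after the adjustment for gene length.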

Other observations

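Beyond the annotated genes, 3517 probe sets had no entry in the annotation and were not controls. Of these, 382 were above background on both arrays of at least 1 of the 2 strains; 2 were at least 1.5-fold higher in strain 2 and 3 at least 1.5-fold lower without overlap of the arrays, and none was 2-fold apart. Their differences lay between -0.64 and 0.99 on the log2 scale. These probe sets are unnamed here.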
